A study of Homo sapiens and Mus musculus with 34 samples.

Results

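The replication-dependent histone genes are the genes whose older symbols begin with HIST1H to HIST4H. All 69 such symbols in the authors' gene table for the lines BE2C and SHSY5Y were members, out of 33720 symbols in that table and 32816 symbols that could be tied to a value on the arrays. They fall into 5 classes by the protein they encode, with 6 genes for H1, 16 for H2A, 20 for H2B, 13 for H3 and 14 for H4. RefSeq places 55 of them in the large cluster on chromosome 6, 13 on chromosome 1 and 1 on chromosome 12, and calls 3 of them pseudogenes (HIST1H2APS1, HIST2H2BA and HIST2H2BC).

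RNA abundance was measured on Affymetrix human transcriptome arrays in 4 neuroblastoma lines, each with 3 arrays of cells given CYC065 for 1 h and 3 arrays of control cells, 24 arrays in all. The treated groups were Kelly, SKNAS, BE2C (BE(2)C in the labels) and SHSY5Y (SH-SY-5Y in the labels), each with its own control group. Doses were 1 µM, except that sources differ on SKNAS, with 1 µM in its sample labels and 5 µM in the protocol text. The controls are called untreated in the sample labels and DMSO-treated in the design text, and are called untreated here. Kelly and SKNAS came in an earlier deposit and BE2C and SHSY5Y in a later one. MYCN is known to be amplified in Kelly and BE2C and not in SKNAS or SHSY5Y. Each is an established line, so that a difference between lines is a difference between single cultures.

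Histones package DNA. H2A, H2B, H3 and H4 form the nucleosome core, and H1, the linker histone, binds the DNA that enters and leaves it. Replication-dependent histone genes are intronless or nearly so, lie in clusters, and are transcribed in S phase under the coactivator NPAT, which cyclin E and CDK2 phosphorylate. Their mRNAs end in a stem-loop bound by SLBP instead of a poly(A) tail, and are short-lived once DNA synthesis stops. CYC065 is an inhibitor of CDK2 and CDK9, and CDK9 is the kinase that releases paused RNA polymerase II into elongation. The labelling kit used here primes total RNA without need of a poly(A) tail, so that mRNAs of this kind can be detected.

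Among the promoters in the RefSeq table (GRCh38.p14), 61 of the 69 genes had a sequence, and 4 motifs known from histone promoters were searched on both strands of the 300 bases from 250 before to 50 after the start. The TATA box TATAAA was found in 67.2% of the 61 promoters, against 11.95% of all 27305 promoters in the table. The CCAAT box was found in all H1, H2A, H2B and H3 promoters but in 25.0% of the H4 promoters, against 35.7% of all promoters. The octamer ATTTGCAT, bound by POU2F1, was found in 71.4% of H2A and 77.8% of H2B promoters, against 1.80% of all promoters. AAACACA, the H1 box, was found in all 6 H1 promoters, against 5.76% of all promoters. Matches of different motifs may overlap by a few bases, and a match is a description of the letters only.

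The 250 bases before the start are shown for 6 genes, with every match to 1 of these motifs on either strand in capitals. HIST1H1E (chr6:26156079-26156328, plus strand) and HIST1H2AG (chr6:27132793-27133042, plus strand) fell with CYC065 in all 4 lines. HIST1H2BI (chr6:26272681-26272930, plus strand) and HIST1H3A (chr6:26020201-26020450, plus strand) were among the largest falls in SKNAS and differed between untreated lines. HIST1H4B (chr6:26027284-26027533, minus strand) had the largest fall in SKNAS. HIST1H4H (chr6:26285535-26285784, minus strand) had a positive change in every line.
HIST1H1E: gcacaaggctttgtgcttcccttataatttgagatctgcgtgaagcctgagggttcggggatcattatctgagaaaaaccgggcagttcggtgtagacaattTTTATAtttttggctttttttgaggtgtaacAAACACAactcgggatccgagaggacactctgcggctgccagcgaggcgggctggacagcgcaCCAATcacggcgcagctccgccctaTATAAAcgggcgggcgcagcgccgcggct
HIST1H2AG: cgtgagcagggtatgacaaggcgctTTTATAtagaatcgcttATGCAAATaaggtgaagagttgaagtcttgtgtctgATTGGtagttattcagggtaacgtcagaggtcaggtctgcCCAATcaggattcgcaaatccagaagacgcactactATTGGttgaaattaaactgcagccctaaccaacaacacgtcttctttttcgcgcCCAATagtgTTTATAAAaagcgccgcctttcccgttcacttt
HIST1H2BI: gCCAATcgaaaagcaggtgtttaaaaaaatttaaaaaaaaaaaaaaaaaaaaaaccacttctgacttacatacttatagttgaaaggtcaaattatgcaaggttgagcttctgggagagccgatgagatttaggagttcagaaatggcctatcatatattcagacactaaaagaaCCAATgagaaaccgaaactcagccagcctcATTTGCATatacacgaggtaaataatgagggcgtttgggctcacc
HIST1H3A: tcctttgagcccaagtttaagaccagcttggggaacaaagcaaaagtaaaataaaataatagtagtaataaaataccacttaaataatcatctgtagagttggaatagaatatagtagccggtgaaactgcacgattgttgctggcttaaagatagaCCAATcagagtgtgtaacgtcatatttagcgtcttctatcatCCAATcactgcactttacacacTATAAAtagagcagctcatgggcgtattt
HIST1H4B: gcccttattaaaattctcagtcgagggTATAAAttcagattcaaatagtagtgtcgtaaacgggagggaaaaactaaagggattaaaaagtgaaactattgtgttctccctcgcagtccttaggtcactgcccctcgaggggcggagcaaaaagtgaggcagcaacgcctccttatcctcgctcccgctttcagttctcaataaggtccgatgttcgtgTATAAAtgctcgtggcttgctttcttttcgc
HIST1H4H: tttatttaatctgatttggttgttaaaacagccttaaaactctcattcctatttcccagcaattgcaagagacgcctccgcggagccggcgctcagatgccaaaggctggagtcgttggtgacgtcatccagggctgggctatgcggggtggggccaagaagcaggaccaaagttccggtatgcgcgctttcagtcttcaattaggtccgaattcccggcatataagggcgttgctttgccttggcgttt
The HIST1H1E promoter holds an H1 box, a CCAAT box and a TATA box in that order towards the start, and a further TATAAA on the other strand upstream. The HIST1H2AG region also holds the start of HIST1H2BJ, transcribed the other way, with the CCAAT boxes and the octamer between the starts. HIST1H4B has TATAAA but none of the other motifs, and HIST1H4H has none of the 4 in this window.

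Across genes, arrays of the same group correlated at 0.994 to 0.999 (Pearson's r), and the number of arrays limits the precision. Values are log2 units of the deposited summaries, and each change is followed by its moderated standard error (±). A change was called where limma's p, adjusted by Benjamini-Hochberg over all 32816 symbols, was under 0.05, whatever its size. A total of 58 members averaged above the mean of the 23 background rows (4.82) and 11 did not. Single background rows ran from 1.77 to 12.75 over the arrays, so this mean is a rough mark and no detection limit. On single arrays it was 4.51 to 4.75 in the earlier deposit and 4.84 to 5.16 in the later one. The sympathetic enzyme DBH averaged 11.90 in CYC065 and 11.96 in untreated Kelly cells, but 5.99 in CYC065 and 5.97 in untreated SKNAS cells. The leukocyte markers PTPRC and CD68 averaged 8.7 and 9.8 in CYC065 and 8.7 and 9.7 in untreated SKNAS cells, against 2.9 to 3.1 and 6.4 to 6.7 in all groups of the other lines, and CD3E was 4.8 to 5.1 in every group. The part of these differences in the results on SKNAS was not tested.

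The change with CYC065 was largest in SKNAS. There, 47 of the 69 genes (68.1%) fell and none rose, against 4.59% of all symbols that fell and 1.33% that rose. At an unadjusted p under 0.05 (limma) 58 members were lower and 1 higher in SKNAS, and 37 lower and 1 higher in SHSY5Y. At that threshold 29 were lower and 4 higher in BE2C, and 16 lower and 7 higher in Kelly. Shares of all symbols were not taken at an unadjusted p, here or below, so such counts have no share to stand beside. The counts that follow are again at an adjusted p. In SHSY5Y 14 fell and none rose (3.97% and 0.399% of all symbols), in BE2C 12 fell and 1 rose (3.06% and 0.673%), and in Kelly 9 fell and 4 rose (11.0% and 8.86%). The share of members that fell in Kelly, 13.0%, was thus near that of all symbols. The median change of the members was -0.03 in Kelly, -0.44 in SKNAS, -0.16 in BE2C and -0.24 in SHSY5Y, beside 0.07, 0.03, 0.01 and 0.02 over all symbols in the same order. On these bulk samples fewer cells in S phase and less RNA per cell cannot be told apart, and line and the possible difference in dose cannot be told apart for SKNAS.

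The falls were small. A fall of at least 1.5-fold was called for 20 members in SKNAS, 4 in SHSY5Y, 2 in BE2C and 2 in Kelly, and the only fall past 2-fold was HIST1H4B in SKNAS. All 3 CYC065 arrays lay below all 3 untreated arrays for 57 members in SKNAS (11.0% of all symbols), 38 in SHSY5Y (10.2%), 32 in BE2C (12.5%) and 16 in Kelly (15.4%). The median value of the 69 genes was 6.78 to 6.92 on the CYC065 arrays and 7.32 to 7.39 on the untreated arrays of SKNAS. In SHSY5Y it was 7.73, 7.42 and 7.50 on the CYC065 arrays and 7.68 to 7.78 on the untreated arrays, so that treated replicate 4 lay among the untreated arrays. Without that array the falls called in SHSY5Y were 17, and without any other array 3 to 8. In BE2C the falls called were 5 to 8 with 1 array left out, in Kelly 5 without untreated replicate 1, treated replicate 4 or treated replicate 5, and in SKNAS 32 to 46.

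The calls that held with each array left out in turn were 31 of 47 in SKNAS, 5 of 13 in Kelly, 5 of 13 in BE2C and 3 of 14 in SHSY5Y. In Kelly they were HIST1H3E, HIST2H2AB, HIST1H2BN, HIST2H2BC and HIST2H3A, in BE2C HIST1H3I, HIST1H2AB, HIST1H3J, HIST1H2AG and HIST1H3F, and in SHSY5Y HIST1H4B, HIST2H2AB and HIST1H1E. Every other call in these 3 lines was lost without at least 1 array. In SKNAS the calls lost in this way included those of HIST1H2AK, HIST1H2BN and HIST2H3A, among others.

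**Figure D1:**
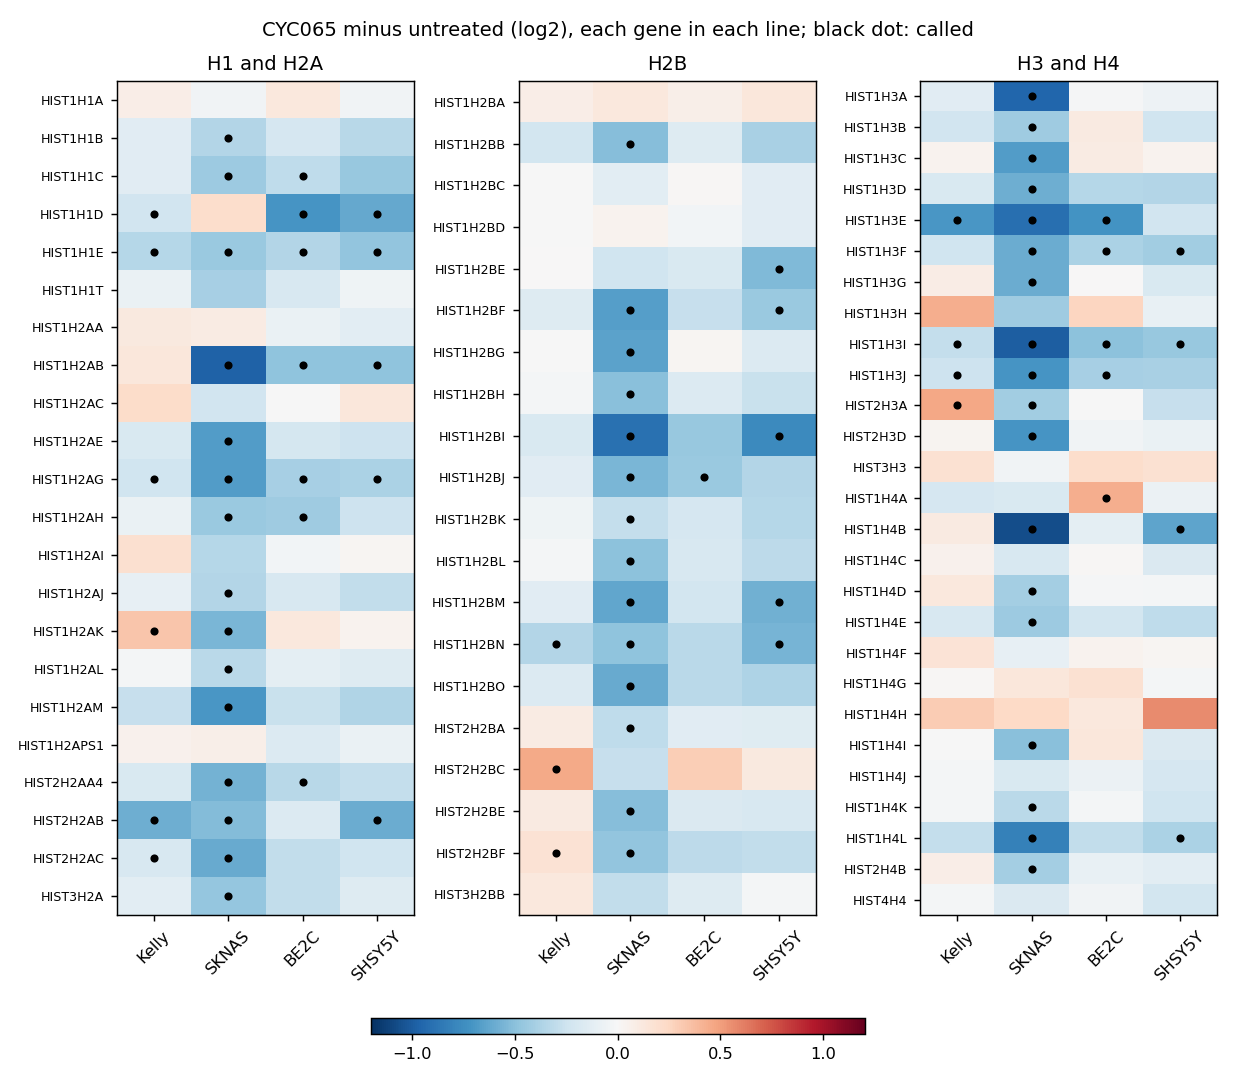
Change of each of the 69 histone genes (down the page, by class) in each line (across), as CYC065 minus untreated in log2 units by colour, with a black dot where the change was called. The SKNAS column holds 47 dots, all of them on falls, against 13 in Kelly, 13 in BE2C and 14 in SHSY5Y.

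The genes that fell in all lines were HIST1H1E, HIST1H2AG and HIST1H3I, 3 of 69, beside 1.72% of all symbols. HIST1H1E (chr6:26156329-26157115), which encodes a linker histone, is the brightest H1 gene on these arrays. It was 11.47, 11.37 and 11.48 in CYC065 against 11.88, 11.64 and 11.82 in untreated Kelly cells, and 9.98, 10.04 and 9.94 against 10.37, 10.38 and 10.53 in SKNAS. It was 11.51, 11.41 and 11.33 in CYC065 against 11.71, 11.78 and 11.81 in untreated BE2C cells, and 11.34, 11.27 and 11.13 against 11.71, 11.68 and 11.78 in SHSY5Y. In each line every treated array was below every untreated array. The changes were -0.34 ± 0.07 in Kelly, -0.44 ± 0.07 in SKNAS, -0.35 ± 0.06 in BE2C and -0.48 ± 0.08 in SHSY5Y, with adjusted p of 0.0147, 0.00443, 0.0301 and 0.00959. Averaged over the lines its fall was 1.32-fold. The call in Kelly was lost without untreated replicate 1 or 3, and the call in BE2C when any 1 of 5 arrays was left out.

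HIST1H2AG (chr6:27133043-27133535), an H2A gene, was 7.11, 7.12 and 7.19 in CYC065 against 7.76, 7.83 and 7.85 in untreated SKNAS cells. It was 8.22, 8.27 and 8.22 in CYC065 against 8.62, 8.67 and 8.60 in untreated BE2C cells. The groups did not overlap in either line. The change was -0.67 ± 0.06 in SKNAS (adjusted p = 0.000245) and -0.40 ± 0.05 in BE2C (0.00734), beside -0.24 ± 0.06 in Kelly (0.0325) and -0.38 ± 0.09 in SHSY5Y (0.0414). The calls in Kelly and in SHSY5Y were each lost when any 1 of 5 arrays was left out.

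HIST1H3I (chr6:27871845-27872346), the brightest H3 gene here, was 10.33, 10.46 and 10.26 in CYC065 against 11.34, 11.21 and 11.46 in untreated SKNAS cells. The treated arrays of SKNAS lay about 1 log2 unit below the untreated ones and treated and untreated arrays did not overlap in any line. The change was -0.99 ± 0.08 in SKNAS (1.98-fold, adjusted p = 0.000164), against -0.28 ± 0.06 in Kelly (0.0176), -0.50 ± 0.06 in BE2C (0.00595) and -0.45 ± 0.08 in SHSY5Y (0.0158). The call in Kelly was lost without treated replicate 5, and the call in SHSY5Y when any 1 of 4 arrays was left out.

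A further 7 members fell in exactly 3 lines. Together with the 3 that fell in all 4 lines, they stand beside 3.15% of all symbols, which fell in at least 3. HIST1H3E (H3) was 5.66, 5.58 and 5.84 in CYC065 against 6.37, 6.30 and 6.51 in untreated Kelly cells. In BE2C it was 6.23, 6.16 and 6.00 in CYC065 against 6.71, 6.79 and 7.05 in untreated cells. It fell by 0.70 on the log2 scale in Kelly (SE 0.08), by 0.90 in SKNAS (SE 0.08) and by 0.72 in BE2C (SE 0.10), the largest fall in Kelly and in BE2C. The call in BE2C was lost without untreated replicate 2, and in SHSY5Y its change of -0.23 was not called. RefSeq gives HIST1H3E a locus of 3296 bases, and 10 members have a locus over 1000 bases.

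HIST2H2AB, an H2A gene of the chromosome 1 cluster, fell in Kelly (-0.59 ± 0.07), SKNAS (-0.52 ± 0.07) and SHSY5Y (-0.60 ± 0.09). HIST1H2AB fell in SKNAS, BE2C and SHSY5Y, but its change in Kelly was 0.14. HIST1H3F fell in SKNAS (-0.59), BE2C (-0.38) and SHSY5Y (-0.42), and HIST1H3J in Kelly (-0.25), SKNAS (-0.71) and BE2C (-0.40). HIST1H2BN (H2B) and HIST1H1D (H1) also fell in 3 lines, but both averaged below the mean of the background rows. HIST1H1D averaged 2.86 in CYC065 and 3.09 in untreated Kelly cells, and in SKNAS, the line without its call, its change was 0.21.

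**Figure D2:**
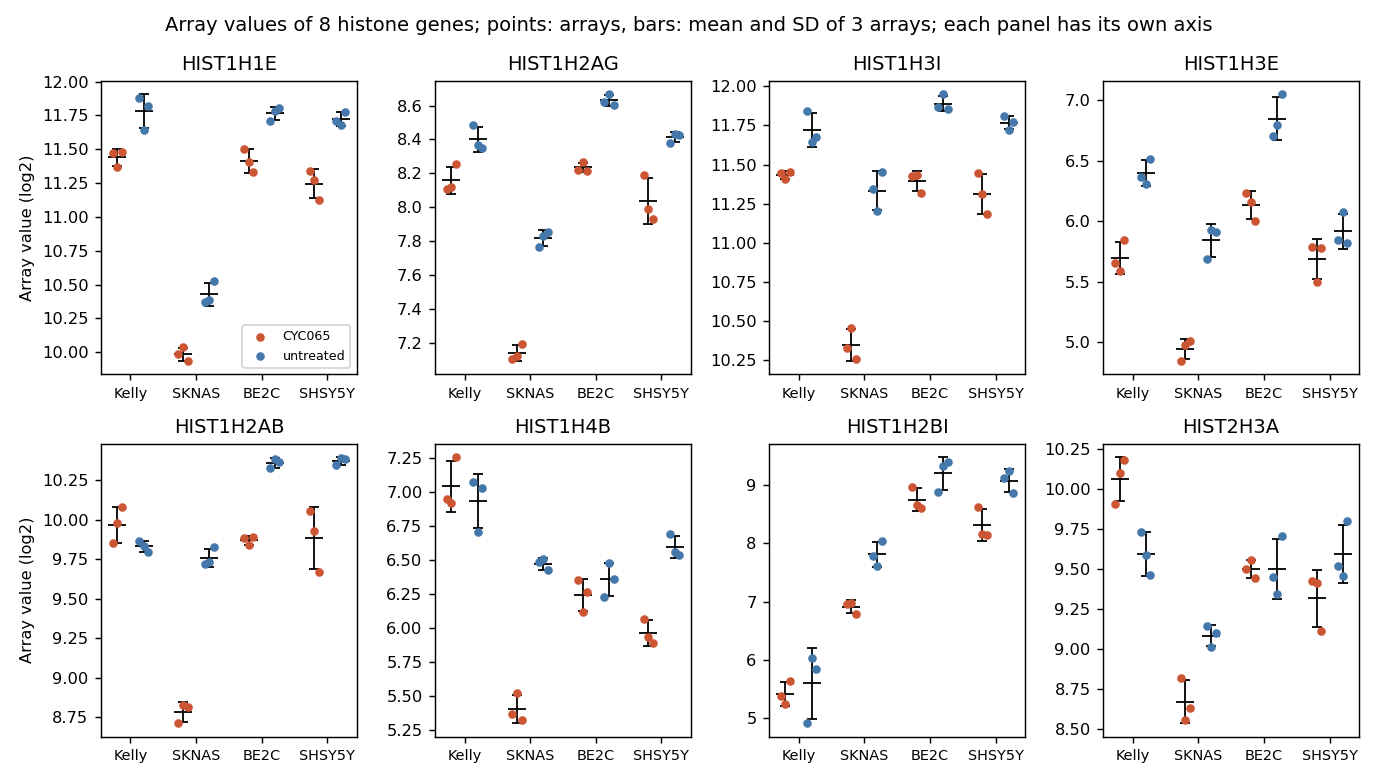
Array values (log2, each panel with its own axis) of 8 histone genes in the 4 lines, CYC065 in red left of untreated in blue, with the mean and SD of 3 arrays. In SKNAS the treated arrays lie below the untreated ones in all 8 panels, while in Kelly HIST2H3A lies above and HIST1H4B overlaps.

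By class, H3 moved most in SKNAS: 11 of 13 H3 genes fell with a median of -0.60. For H2A, 12 of 16 fell (median -0.49), for H2B 14 of 20 (-0.49), for H1 3 of 6 (-0.38) and for H4 7 of 14 (-0.26). No H4 gene fell in Kelly or BE2C (2 in each at an unadjusted p under 0.05, limma), and 2 of 14 (14.3%) fell in SHSY5Y. These stand beside falls called for 11.0% of all symbols in Kelly, 3.06% in BE2C and 3.97% in SHSY5Y. With 14 genes, a count of 0 is not far from such shares. Few falls were not particular to H4, as 1 of 20 H2B genes (5.0%) fell in Kelly and 1 in BE2C. The classes were not tested against each other. Members of a class are near-identical in sequence, so signal can be shared between them and they are not independent measurements.

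HIST1H4B (chr6:26026896-26027283), an H4 gene, was 5.37, 5.52 and 5.32 in CYC065 against 6.49, 6.51 and 6.43 in untreated SKNAS cells. In SHSY5Y it was 6.07, 5.93 and 5.89 in CYC065 against 6.69, 6.56 and 6.54 in untreated cells. Treated and untreated arrays were apart in both lines. The fall was 2.10-fold in SKNAS (-1.07 ± 0.07, adjusted p = 4.63e-05) and 1.55-fold in SHSY5Y (-0.63 ± 0.08, 0.00247). In Kelly it was 6.95, 6.92 and 7.26 in CYC065 against 7.07, 6.71 and 7.03 in untreated cells, and these overlapped.

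HIST1H2AB (H2A) was 8.71, 8.83 and 8.81 in CYC065 against 9.72, 9.73 and 9.82 in untreated SKNAS cells, a fall of 1.96-fold (-0.97 ± 0.06, adjusted p = 4.63e-05). In BE2C it was 9.88, 9.84 and 9.89 in CYC065 against 10.32, 10.38 and 10.36 in untreated cells. Both sets of arrays were far apart relative to their spread. HIST1H3A (H3) was 6.01, 6.14 and 6.11 in CYC065 against 7.10, 6.78 and 7.23 in untreated SKNAS cells (-0.95 ± 0.11). It had no call in another line.

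HIST1H2BI (H2B) was 6.97, 6.98 and 6.78 in CYC065 against 7.78, 7.61 and 8.04 in untreated SKNAS cells, and fell 1.87-fold. In SHSY5Y it was 8.63, 8.16 and 8.14 in CYC065 against 9.13, 9.24 and 8.86 in untreated cells, the largest fall in that line (-0.76 ± 0.15, adjusted p = 0.019). That call was lost when any 1 of 4 arrays was left out. In Kelly its untreated arrays spread from 4.91 to 6.04 and no change was called.

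**Figure D3:**
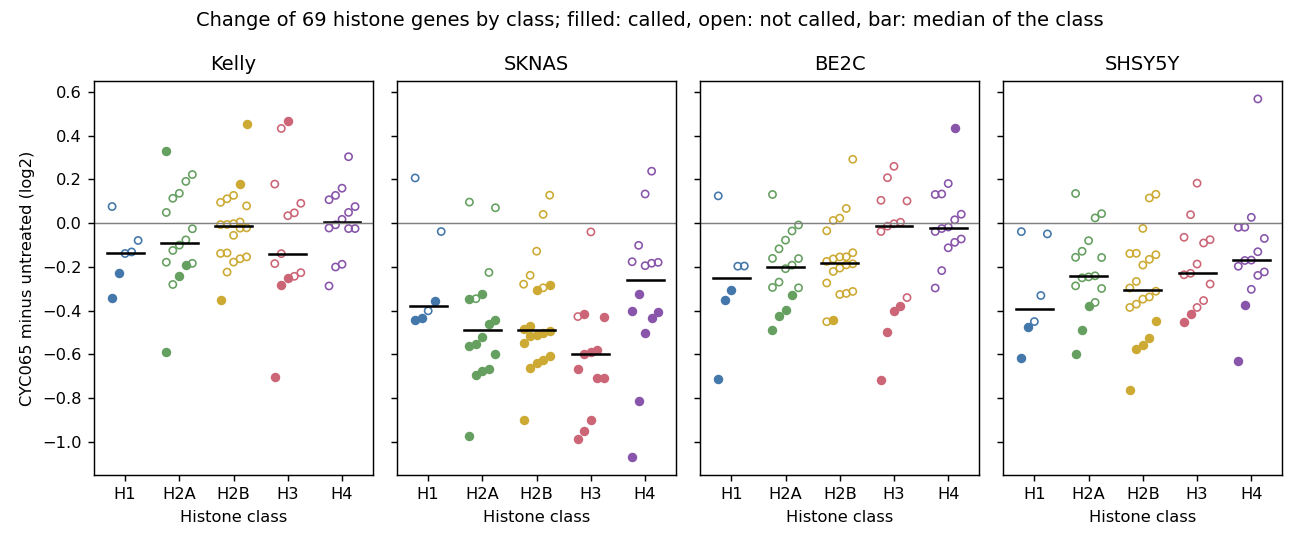
Change of each histone gene (CYC065 minus untreated, log2) by class in each line, with filled points called, open points not called and a bar at the class median. In SKNAS the class medians run from -0.60 for H3 to -0.26 for H4, while in Kelly they run from -0.14 to 0.00.

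Few members rose. HIST2H3A, an H3 gene of the chromosome 1 cluster, was 9.91, 10.10 and 10.18 in CYC065 against 9.74, 9.59 and 9.46 in untreated Kelly cells. In SKNAS it was 8.82, 8.56 and 8.63 in CYC065 against 9.14, 9.01 and 9.10 in untreated cells. The treated arrays were thus all higher in Kelly and all lower in SKNAS, and the changes of 0.47 ± 0.09 and -0.42 ± 0.08 were both called, the call in SKNAS being lost without untreated replicate 1 or 3 or treated replicate 6. In its second, dimmer row the change was 0.45 in Kelly and -0.35 in SKNAS, where it was not called (limma adjusted p = 0.0633). HIST1H2AK (0.33 in Kelly, -0.55 in SKNAS) and HIST2H2BF (0.18 in Kelly, -0.47 in SKNAS) were the other members called in opposite directions in 2 lines, and both calls in Kelly were lost when any 1 of 4 or 5 arrays was left out. The dimmer row of HIST2H2BF gave 0.19 in Kelly and -0.25 in SKNAS, neither called (limma adjusted p = 0.0559 and 0.0512). The pseudogene HIST2H2BC rose in Kelly (0.45 ± 0.05, adjusted p = 0.000411), where its dimmer row gave 0.52. HIST1H4A, an H4 gene, rose in BE2C, with 8.55, 8.67 and 8.72 in CYC065 against 8.08, 8.26 and 8.28 in untreated cells, a call lost when any 1 of 5 arrays was left out.

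HIST1H4H (H4) had a positive change in every line without a call in any. It was 7.23, 6.98 and 7.31 in CYC065 against 7.03, 6.78 and 6.81 in untreated Kelly cells, and 6.63, 5.97 and 6.00 against 5.78, 5.53 and 5.58 in SHSY5Y. The groups overlapped in Kelly and not in SHSY5Y. Averaged over the lines its change was 0.31 ± 0.07 (adjusted p = 0.00207). HIST1H4H is among 8 members reported elsewhere to make polyadenylated transcripts as well. Of these, 4 fell in SKNAS and 2 in BE2C, and none was called in Kelly (1 higher at an unadjusted p under 0.05, limma) or SHSY5Y (3 lower and 1 higher). The 4 members known as testis histones (HIST1H1T, HIST1H2AA, HIST1H2BA and HIST3H3) were called in no line, and at an unadjusted p under 0.05 (limma) 1 was higher in Kelly, 1 lower in SKNAS and 1 higher in BE2C.

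The average over the lines was lower with CYC065 for 48 members and higher for 3, beside 13.0% and 15.5% of all symbols. The members with a higher average were HIST1H4H, HIST2H2BC and HIST3H3. The later deposit alone gave 30 lower and none higher, a fit for which no share of all symbols was taken.

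Whether the lines differed was tested directly. An F test of any difference between the 4 changes called 20 members, beside 5.14% of all symbols. With the SKNAS arrays left out it called 5 members, and no share of all symbols was taken for that fit. A contrast of the SKNAS change against the mean of the other lines, chosen after the values were seen, was lower for 18 members and higher for 1. These stand beside 0.762% and 0.884% of all symbols. The higher member was HIST1H1D, which averaged below the mean of the background rows. HIST1H3A differed by -0.88 ± 0.14, HIST1H4B by -0.86 ± 0.11 and HIST1H2AB by -0.69 ± 0.08, the last also having the smallest adjusted p in the F test. HIST2H2AB passed the F test as well, but its change in SKNAS differed from the mean of the others by -0.07 ± 0.09.

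Some histone genes share a promoter region with a gene on the opposite strand. Among the 61 members with a promoter sequence, which gives the strand, 11 such pairs had starts at most 500 bases apart, and the other 8 members were not used here. In SKNAS both genes fell in 7 pairs, 1 of the genes in 2 pairs and neither in 2. Of all 69 members 68.1% fell in SKNAS, and whether paired genes fell together more often than this share gives was not tested. Both genes fell in no pair in Kelly or SHSY5Y and in 1 pair in BE2C. A single gene of the pair fell in 3 pairs in Kelly, none in BE2C and 4 in SHSY5Y. Of all 69 members 13.0% fell in Kelly, 17.4% in BE2C and 20.3% in SHSY5Y, beside 11.0%, 3.06% and 3.97% of all symbols. With so few falls few joint ones can arise, and the pairs were not tested against these shares. HIST1H2AG and HIST1H2BJ, whose shared region is printed above, fell by 0.67 and 0.55 on the log2 scale in SKNAS and by 0.40 and 0.44 in BE2C. HIST1H2BJ has a second, dimmer row, whose change was -0.32 in SKNAS (limma adjusted p = 0.0334) and -0.19 in BE2C, where the call was lost (0.209). HIST1H2AK and HIST1H2BN fell together in SKNAS, whereas in Kelly HIST1H2AK rose by 0.33 and HIST1H2BN fell by 0.35 on the log2 scale. In SKNAS 20 of 25 members with the octamer fell (median -0.52) and 23 of 36 without it (-0.43), and 27 of 41 with TATAAA fell (-0.44) and 16 of 20 without it (-0.46). With the CCAAT box 38 of 52 fell (-0.50) and 5 of 9 without it (-0.32), and with the H1 box 5 of 8 fell (-0.41) and 38 of 53 without it (-0.49). These differences were not tested, and motif and class go together, with 10 H2A and 14 H2B genes among the 25 with the octamer. The 2 genes of a pair can share 1 octamer, so the 25 genes do not stand for as many sites.

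Untreated levels were compared within each deposit. Untreated Kelly cells had higher levels than untreated SKNAS cells for 30 members and lower levels for 6, beside 18.2% and 18.7% of all symbols. HIST1H1E was 11.88, 11.64 and 11.82 in Kelly against 10.37, 10.38 and 10.53 in SKNAS, 2.56-fold higher in Kelly (1.35 ± 0.07, adjusted p = 1.64e-09). HIST3H2BB (H2B) was higher in Kelly by 1.12 ± 0.10, HIST1H4D (H4) by 1.11 ± 0.07 and HIST1H3A by 1.10 ± 0.10. The opposite held for HIST1H2BI, which was 4.91, 6.04 and 5.85 in Kelly against 7.78, 7.61 and 8.04 in SKNAS (-2.21 ± 0.24). HIST1H3C (H3) was 4.27, 3.88 and 3.95 in Kelly, below the mean of the background rows, against 6.00, 6.08 and 6.31 in SKNAS. With Kelly below that mean no size of the difference is given, and the SKNAS mean was 1.31 log2 units above the mean of the background rows. HIST1H3G and HIST1H2BB were lower in Kelly by 1.28 and 1.04 log2 units.

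Between untreated BE2C and untreated SHSY5Y cells 10 of the 69 members were higher in BE2C and 9 lower, beside 16.3% and 14.6% of all symbols. Both counts were thus near the shares of all symbols. HIST1H4H was 6.83, 6.76 and 6.98 in BE2C against 5.78, 5.53 and 5.58 in SHSY5Y, 2.34-fold higher in BE2C (1.23 ± 0.11, adjusted p = 1.24e-06). HIST1H3E was 6.71, 6.79 and 7.05 in BE2C against 5.85, 6.08 and 5.82 in SHSY5Y (0.93 ± 0.10). Both sets were far apart. HIST1H1T, a testis H1, was 5.68, 5.69 and 5.81 in BE2C against 6.53, 6.64 and 6.20 in SHSY5Y (-0.73 ± 0.10). HIST1H4F was called lower in BE2C, but averaged below the mean of the background rows in both lines (3.84 in BE2C and 4.71 in SHSY5Y), so that no size is given.

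**Figure D4:**
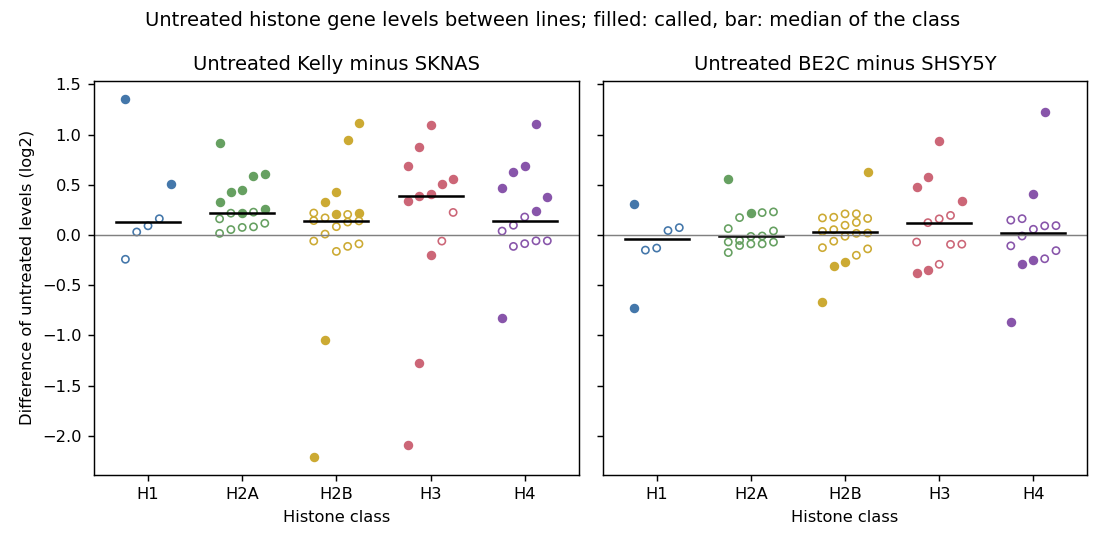
Difference between untreated lines (log2) of each histone gene by class, as Kelly minus SKNAS (left) and BE2C minus SHSY5Y (right), with filled points called and a bar at the class median. On the left 30 genes are called above 0 and 6 below, and on the right 10 above and 9 below. The counts on the right are near the shares of all symbols (16.3% and 14.6%).

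Genes of histone transcription, 3′ end processing and mRNA decay, replication-independent histone genes, histone chaperones and S phase genes were described from 6 lists. Their counts stand against falls called for 11.0% of all symbols in Kelly, 4.59% in SKNAS, 3.06% in BE2C and 3.97% in SHSY5Y, and rises called for 8.86%, 1.33%, 0.673% and 0.399% in the same order. Of 10 measured genes of histone transcription, 8 fell in Kelly, 3 in SKNAS, 5 in BE2C and 5 in SHSY5Y, and none rose. At an unadjusted p under 0.05 (limma) 8, 8, 9 and 8 of them were lower and none higher in Kelly, SKNAS, BE2C and SHSY5Y. NPAT, the coactivator of histone genes, fell in every line, with changes of -1.26 ± 0.05 in Kelly, -0.48 ± 0.08 in SKNAS, -0.65 ± 0.06 in BE2C and -0.84 ± 0.13 in SHSY5Y. These changes differed between the lines in the F test (adjusted p = 0.00461), and their part in the changes of the histone genes was not tested. COIL, the Cajal body protein coilin, and CDC25A, a phosphatase that activates CDK2, also fell in every line. CCNE2, a cyclin E gene, fell by 0.60, 0.36 and 0.73 on the log2 scale in Kelly, BE2C and SHSY5Y, and its change of -0.30 in SKNAS was not called.

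Of 21 genes of the 3′ end processing list, 6 fell and 2 rose in Kelly, and 4, 2 and 3 fell with none rising in SKNAS, BE2C and SHSY5Y. The share that rose in Kelly, 9.52%, was near that of all symbols. SLBP, the stem-loop binding protein, fell in Kelly (-0.47 ± 0.05) and had changes of -0.15, -0.10 and -0.15 without a call elsewhere. ZNF473, a component of the U7 complex that cleaves histone pre-mRNA, fell in every line by 0.59 to 1.02 log2 units. LSM11, a U7-specific Sm-like protein, fell in Kelly (-0.81), SKNAS (-0.50) and SHSY5Y (-0.46). CASP8AP2, needed for histone 3′ end processing, fell in Kelly (-0.80), SKNAS (-0.28) and BE2C (-0.28).

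Of 15 measured genes of histone mRNA decay, 4 fell and 1 rose in Kelly, and 1, 2 and 1 fell in SKNAS, BE2C and SHSY5Y. The 6.67% that fell in SKNAS and in SHSY5Y was 1 gene and near the share of all symbols, and the 6.67% that rose in Kelly was below it. DCP1A, a decapping cofactor, fell in every line by 0.48 to 0.88 log2 units. UPF1, a helicase that acts in decay, fell in Kelly (-0.43 ± 0.06) and had changes of -0.13, -0.24 and -0.32 without a call in SKNAS, BE2C and SHSY5Y. The 12 replication-independent histone genes were called lower in Kelly for 3 (H2AFX -0.41, CENPA -0.35 and H3F3B -0.21) with none called in the other lines (2, 1 and 2 lower at an unadjusted p under 0.05 in SKNAS, BE2C and SHSY5Y, limma). Of 19 measured histone chaperones 5, 1, 1 and 2 fell in Kelly, SKNAS, BE2C and SHSY5Y, with HJURP, the CENPA chaperone, lower in every line. In SKNAS and BE2C this was 5.26% of the list, near the share of all symbols. Of 21 S phase genes 7 fell and 1 rose in Kelly, none was called in SKNAS (4 lower and 1 higher at an unadjusted p under 0.05, limma), and 3 and 4 fell in BE2C and SHSY5Y. PCNA, the sliding clamp, fell in Kelly (-0.31 ± 0.06) and had a change of -0.24 ± 0.06 without a call in SKNAS.

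**Figure D5:**
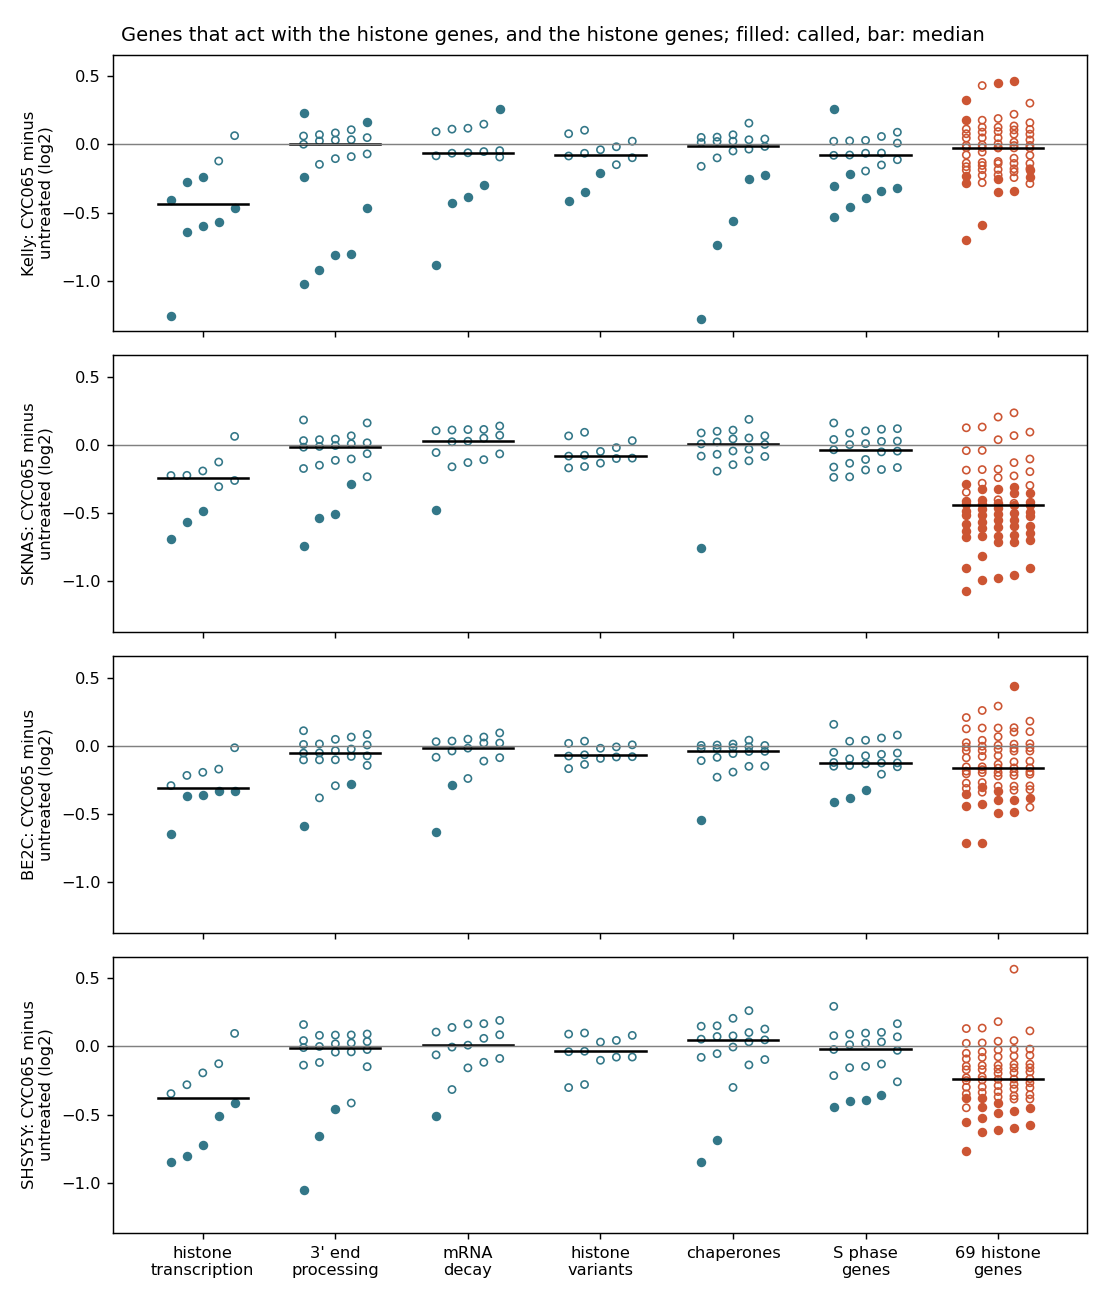
Change with CYC065 (log2, 1 panel per line) of the genes of 6 lists and of the 69 histone genes, with filled points called, open points not called and a bar at the median. In SKNAS the histone genes have a median of -0.44 with 47 called, beside falls called for 4.59% of all symbols. The S phase list has no called gene among 21 there, which is near that share, and 4 lower and 1 higher at an unadjusted p under 0.05 (limma).

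The authors' deposited table gives its own tests for BE2C and SHSY5Y. At their adjusted p under 0.05 it holds 6 members as lower in BE2C and 5 in SHSY5Y, none higher, beside 1.57% and 2.53% of all its symbols that are lower. In the authors' deposited table HIST1H2AB has the smallest adjusted p among members in BE2C (0.0127) and HIST1H4B in SHSY5Y (0.00922).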

How the data were processed

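The deposited human values are log2 summaries per array row, and the submitters' processing notes name RMA, affy and limma with no role or version. RMA can put arrays on a common distribution and so hide a global change. In the deposited values the median over all rows ran from 4.62 to 4.94 on single arrays. The median change over all symbols in Kelly was 0.07 as deposited and 0.02 after quantile normalisation. Rows carry no gene names, so names came from matching numbers. Each symbol of the authors' deposited table went to the row, or mean of 2 rows (brighter row kept), whose log2 fold change and mean log2 level in BE2C and SHSY5Y equal the table's within 1e-07. This tied 32816 of 33720 symbols (97.3%), including all 69 histone symbols (62 to 1 row, 7 to 2), and 0 with values moved between symbols. The deposited p-values and adjusted p-values, made by the authors, are quoted as such.

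Each line was tested with limma 3.58.1 (R 4.3.3), CYC065 minus untreated, 3 arrays against 3. The average, the F test and the SKNAS contrast used 8 group means on 24 arrays, and untreated levels 4 group means on 12 arrays. The fits were checked on simulated data. Replicate numbers are shared between lines but same-numbered arrays did not deviate together (r from -0.22 to 0.10), so no block was used. Members and lists were chosen with earlier results of these data known. Named members are, by rule, the 6 largest called changes each way per line, those called in 3 or 4 lines or in opposite directions, the brightest of each class, the 6 smallest F test p, the 5 largest untreated differences each way, and up to 4 genes per list. Alternatives included quantile normalisation, median centring, a shared spread, array weights, a fold of 1.5, dim genes left out and each array left out. RefSeq (GRCh38.p14) gave loci and promoters. Mouse arrays were not used here.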

Additional observations from a re-analysis of the deposited data

Results flagged for a closer look

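For 20 members the CYC065 change differed between the 4 lines in an F test across all symbols (limma), and the value after each name is its adjusted p. The 6 smallest were HIST1H2AB (5.6e-06), HIST1H4B (4.19e-05), HIST2H2BC (0.000377), HIST1H3I (0.000721), HIST1H2BG (0.00112) and HIST1H4I (0.00143). Next came HIST1H3A (0.0023), HIST1H1D (0.00326), HIST2H3A (0.0034), HIST1H2AK (0.00627), HIST1H4A (0.00859), HIST2H3D (0.00876) and HIST2H2BE (0.0127). The others were HIST2H2AC (0.015), HIST1H2AG (0.0169), HIST1H3C (0.0231), HIST2H2AB (0.0293), HIST1H3E (0.0325), HIST1H3G (0.0337) and HIST1H3B (0.038). For 14 of the 20 the SKNAS change was lower than the mean of the other lines at an adjusted p under 0.05 (limma), and for HIST1H1D it was higher. That contrast was chosen after the values were seen and uses the same arrays as the F test, which covers it. It is therefore no separate support. The share of all symbols called by the F test that pass this contrast was not taken.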

How the results depend on the processing

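No named member reversed under an alternative. Of the alternatives for named members 790 kept direction and side of the threshold, 157 lost the call and 9 gained it. The counts of members below have no share of all symbols beside them, as none was taken for the alternatives. With a fold of at least 1.5 required, the falls were 2 in Kelly, 20 in SKNAS, 2 in BE2C, 4 in SHSY5Y and 1 in the average, the rises were 0 in Kelly, BE2C and the average, and the untreated differences were 12 higher in Kelly, and 3 higher and 3 lower in BE2C. Quantile normalisation gave 10 falls in Kelly, 43 in SKNAS, 12 in BE2C and 16 in SHSY5Y. Median centring left 2 rises in Kelly and 5 falls in SHSY5Y. A spread shared over 24 arrays gave 28 falls and 1 rise in SHSY5Y and 2 rises in BE2C, and array weights gave 14 falls in Kelly and 39 falls and 1 rise in SHSY5Y. The later deposit alone gave 30 falls and 0 rises in the average, the earlier deposit alone 1 rise. The F test called 5 members without the SKNAS arrays, and the SKNAS contrast had 0 higher members with dim genes left out. With 1 array left out, falls and rises ran from 5 to 13 and 2 to 6 in Kelly, 32 to 46 and 0 to 1 in SKNAS, 5 to 8 and 0 to 1 in BE2C, 3 to 17 falls in SHSY5Y, and 42 to 46 and 2 to 3 in the average. They ran from 11 to 17 in the F test and from 10 to 15 lower and 0 to 1 higher in the SKNAS contrast. The cause was not tested. With the replicate number as a replicate block, which the data did not bear out as a pairing, the F test called 18 members, untreated Kelly had 28 higher and 6 lower, untreated BE2C 9 higher and 7 lower, and the SKNAS contrast had 15 lower and 1 higher. Low signal limits the 11 members at or below the mean of the background rows, and may limit others.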
